A study of Mus musculus with 4 samples.

Results

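The genes described here are the 4 Id genes (Id1, Id2, Id3 and Id4) and the 3 E protein genes (Tcf3, Tcf4 and Tcf12), 7 of the 31600 features in the deposited expression table. They were measured in mouse spermatogonial stem cells of a differentiation group (2 libraries, whose genotype label reads Differentiation) and of a control group (2 libraries, labelled WT). The labels state no mouse strain, age, culture condition, differentiation agent or duration. They also do not say if replicate libraries stem from different cultures or animals, so the p-values measure only the spread between these libraries, which may be technical. The genes were chosen from an earlier reading of the same libraries: Id4 had been selected on its higher level in the differentiation group, and the other 6 genes complete the Id family and the E proteins by name. Id4 is therefore described without a test, and the question is whether its relatives differ between the groups in the same direction.

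Id proteins are small helix-loop-helix proteins that lack the basic stretch with which related factors contact DNA. They pair with E proteins, the broadly expressed basic helix-loop-helix factors encoded by Tcf3 (E12 and E47), Tcf4 (E2-2) and Tcf12 (HEB), and keep them from binding E-box DNA alone or with tissue-specific partners. Transcription of Id genes is a classical response to bone morphogenetic protein (BMP) signalling through Smad1 and Smad5, and in the mouse testis Id4 is known as a marker of the spermatogonial stem cell fraction.

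The RefSeq promoter windows of Id4, Id2 and Id3 are shown because Id4 differed between the groups in the opposite direction to the other 2. Each window (GRCm38.p6) runs from 250 bases before to 50 bases after an annotated start, 5′ to 3′ on the strand of the gene: chr13:48260866-48261165 on the plus strand for Id4, chr12:25096043-25096342 on the minus strand for Id2 and chr4:136143572-136143871 on the plus strand for Id3. Capitals mark E-boxes (CANNTG) and the GC box of BMP-activated Smads (GGCGCC), both searched on both strands, and no pair of matches overlapped.
Id4: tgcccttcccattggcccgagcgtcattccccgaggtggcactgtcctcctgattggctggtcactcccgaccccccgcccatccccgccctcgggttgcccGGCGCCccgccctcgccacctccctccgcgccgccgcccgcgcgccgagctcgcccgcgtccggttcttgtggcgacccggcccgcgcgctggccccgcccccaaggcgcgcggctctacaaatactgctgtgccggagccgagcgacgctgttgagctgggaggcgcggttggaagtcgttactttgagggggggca
Id2: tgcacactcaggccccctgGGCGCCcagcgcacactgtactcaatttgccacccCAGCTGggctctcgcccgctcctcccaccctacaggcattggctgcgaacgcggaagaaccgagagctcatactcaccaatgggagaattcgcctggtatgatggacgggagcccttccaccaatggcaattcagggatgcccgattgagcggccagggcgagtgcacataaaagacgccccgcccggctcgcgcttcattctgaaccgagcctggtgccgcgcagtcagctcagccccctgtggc
Id3: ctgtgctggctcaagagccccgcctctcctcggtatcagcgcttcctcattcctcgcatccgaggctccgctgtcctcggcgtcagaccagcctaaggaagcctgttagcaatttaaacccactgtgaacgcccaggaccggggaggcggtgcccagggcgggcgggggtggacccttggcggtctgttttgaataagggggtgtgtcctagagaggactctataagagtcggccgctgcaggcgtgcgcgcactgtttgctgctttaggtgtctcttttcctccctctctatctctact
The Id4 window held 1 GC box and 0 E-boxes, the Id2 window 1 of each, and the Id3 window 0 of each. Of 32851 promoter windows of the same length, 72.3% held an E-box and 11.9% a GC box. The Tcf3 window held 1 E-box and 0 GC boxes, and the 3 Tcf12 windows held 1, 2 and 1 E-boxes and 0 GC boxes. GC content was 73.3% for Id4, 63.3% for Id2 and 60% for Id3, beside a median of 52.7% over all windows. Windows for 5 of the 7 genes were in the RefSeq table, which had none for Id1 and Tcf4. The Id2 and Id3 windows lie inside the GENCODE M21 spans of these genes, and the Id4 window ends before the span of Id4. Sequence outside the windows was not searched, so these counts do not show whether a gene has such motifs elsewhere.

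Values are FPKM, fragments scaled to the merged exon length of a gene and to library depth, and for the 7 genes they returned whole numbers of fragments at library scales of 17772000 and 20363300 for differentiation and 19461700 and 20650200 for control. Features with an adjusted p under 0.05 by limma, a linear model fitted over all features, are said to have risen or fallen. Of all 23138 features tested, 27.0% fell and 29.6% rose. Of the markers of undifferentiated spermatogonia (22 genes, without the Id family), 16 of 21 tested fell in differentiation and 0 rose, with summed levels of 79.1 and 79.0 FPKM in differentiation against 210 and 215 FPKM in control. Of 20 spermatocyte markers, 19 rose and 0 fell, and their sum was 1553 and 1581 FPKM in differentiation against 327 and 328 FPKM in control, so these markers were also present in the control libraries. Fibroblast and peritubular markers fell in 17 of 19 tested genes and rose in 0 (164 and 155 FPKM in differentiation, 472 and 477 FPKM in control), and macrophage and leukocyte markers fell in 11 of 13 and rose in 1 (23.9 and 22.6 FPKM, against 79.4 and 75.8 FPKM in control). Sertoli markers summed to 202 and 189 FPKM in differentiation and 192 and 196 FPKM in control, with 5 of 14 tested genes higher and 5 lower. Endothelial markers fell in 2 of 6 tested genes and rose in 0 (10.7 and 9.87 FPKM, against 17.6 and 17.9 FPKM in control), and Leydig markers fell in 2 of 4 and rose in 1 (21.6 and 21.4 FPKM, against 37.4 and 38.4 FPKM in control). All 31600 features of the deposited table were above 0 in some library, so any marker found in it was too. The Sertoli marker Rhox5 and the Leydig marker Insl3 were not in the table.

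**Figure D1:**
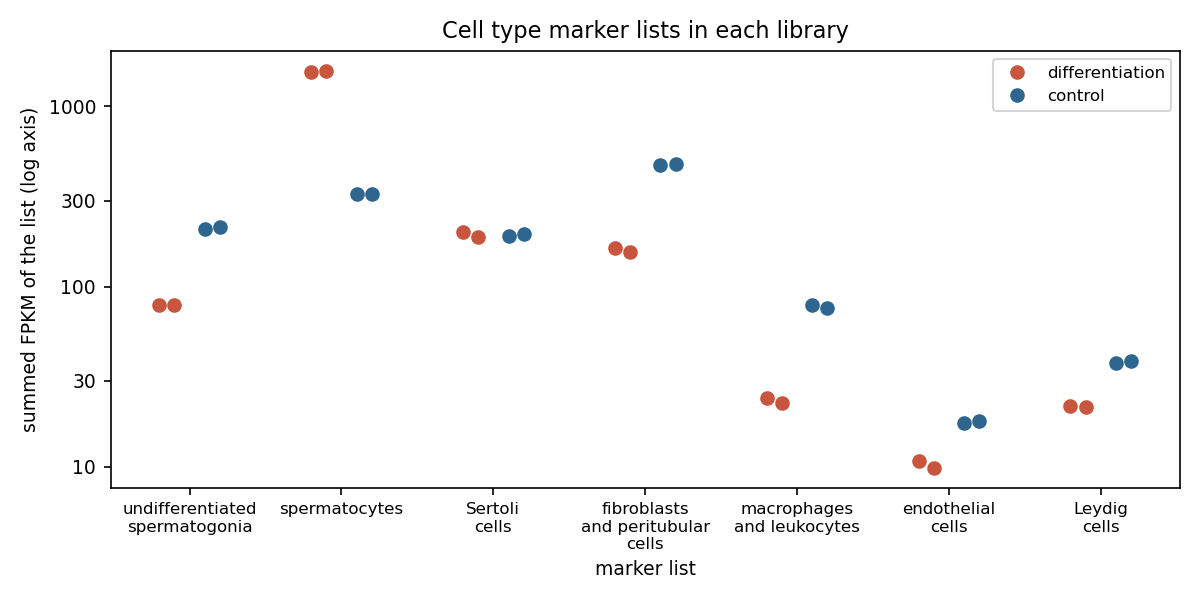
Summed FPKM (log axis) of 7 lists of cell type markers in each library, with differentiation left of control and 1 point per library. Spermatocyte markers sum to 1553 and 1581 FPKM in differentiation against 327 and 328 FPKM in control, while the lists of undifferentiated spermatogonia, fibroblasts and peritubular cells, macrophages, endothelial cells and Leydig cells are lower in differentiation, with no overlap between the groups.

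The higher level of Id4 in differentiation was not shared by the family: Id1, Id2 and Id3 all fell. Of all 23138 features tested, 27.0% fell, 29.6% rose and 79.9% had groups that did not overlap. Id4 (ENSMUSG00000021379; GRCm38 chromosome 13, 48261228 to 48266026, plus strand, 3 merged exons, 3849 exonic bases) was at 12.3 and 12.6 FPKM in differentiation, against 3.00 and 2.89 FPKM in control. Both differentiation libraries lay above both control libraries, and the values rest on 838 and 984 fragments in differentiation and 225 and 230 in control. The mean of 12.4 ± 0.215 FPKM in differentiation was 4.21 times the mean of 2.95 ± 0.0778 FPKM in control (SD, n = 2 each). The log2 fold change was 1.76 on log2(FPKM + 1), where the added 1 shrinks changes of genes at low levels, and 2.07 on recovered fragments.

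Id1 (ENSMUSG00000042745; chromosome 2, 152736251 to 152737410, plus strand, 1160 exonic bases), an Id protein best known as a direct BMP target, was at 8.54 and 8.42 FPKM in differentiation, against 18.4 and 19.1 FPKM in control. The groups did not overlap, with 176 and 199 fragments in differentiation and 415 and 458 in control, and Id1 fell by 1.06 on the log2 scale (SE 0.04; limma adjusted p = 2.31e-04). Id3 (ENSMUSG00000007872; chromosome 4, 136143497 to 136145755, plus strand, 1791 exonic bases), often induced together with Id1, was at 3.27 and 3.67 FPKM in differentiation, against 10.8 and 11.0 FPKM in control. Its control mean was 3.14 times its differentiation mean, the largest decrease among the 7 genes, on 104 and 134 fragments in differentiation and 377 and 406 in control. The log2 fold change of Id3 was -1.41 (SE 0.07; limma adjusted p = 3.81e-04), and 98.7% of the 23138 features tested had a higher one. Id2 (ENSMUSG00000020644; chromosome 12, 25093799 to 25097140, minus strand, 2438 exonic bases), which is also known to bind the retinoblastoma protein, was at 9.32 and 8.28 FPKM in differentiation, against 13.5 and 12.2 FPKM in control. Id2 fell by 0.50 on the log2 scale (SE 0.08; limma adjusted p = 8.54e-03), the smallest change among the Id genes, although its groups did not overlap. Without differentiation replicate 2 the call of Id2 was lost (limma adjusted p = 0.050003, at a log2 fold change of -0.43). In these bulk libraries fewer cells of a type and less RNA per cell cannot be told apart. The spermatocyte markers moved in the same direction as Id4, and the markers of undifferentiated spermatogonia, fibroblasts and macrophages in the same direction as Id1, Id2 and Id3. Their part in these values was not tested.

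**Figure D2:**
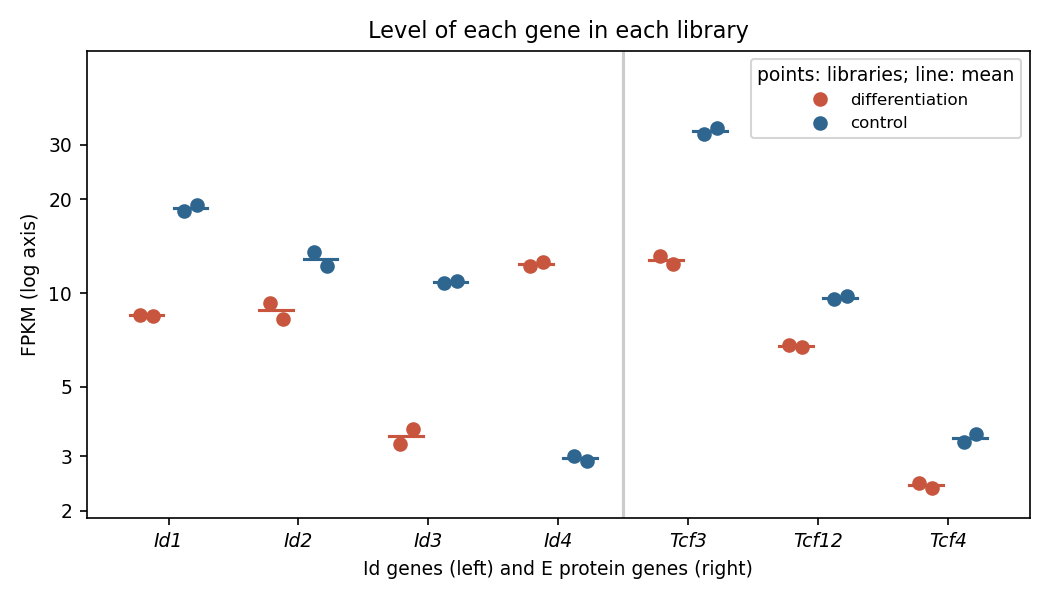
FPKM (log axis) of the 4 Id genes and the 3 E protein genes, with differentiation left of control, 1 point per library and a line at the mean of each group. Id4 is the only gene of the 7 with both differentiation libraries (12.3 and 12.6 FPKM) above the control libraries (3.00 and 2.89 FPKM); in the other 6 genes both lie below.

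The E protein genes fell as well, and Tcf3 by the most. Tcf3 (ENSMUSG00000020167; chromosome 10, 80409514 to 80433647, minus strand, 21 merged exons, 4039 exonic bases), which encodes E12 and E47, was at 13.1 and 12.4 FPKM in differentiation, against 32.5 and 33.8 FPKM in control. It was the highest of the 7 genes in control, and the differentiation libraries held 942 and 1018 fragments against 2557 and 2819. Tcf3 fell by 1.31 on the log2 scale (SE 0.04; limma adjusted p = 1.93e-04), with a control mean 2.60 times the differentiation mean. Because the table gives 1 value per gene, E12 and E47 were not separated. Tcf12 (ENSMUSG00000032228; chromosome 9, 71842688 to 72111871, minus strand, 24 merged exons, 15529 exonic bases), which encodes HEB, was at 6.83 and 6.73 FPKM in differentiation, against 9.59 and 9.77 FPKM in control. Tcf12 fell by 0.46 (SE 0.04; limma adjusted p = 2.19e-03), and its groups did not overlap. Tcf4 (ENSMUSG00000053477; chromosome 18, 69343356 to 69689079, plus strand, 36 merged exons, 27382 exonic bases), which encodes E2-2, was at 2.46 and 2.37 FPKM in differentiation, against 3.32 and 3.52 FPKM in control. The groups did not overlap and Tcf4 fell by 0.37 (SE 0.08; limma adjusted p = 0.0200), the smallest change of the 7. The call of Tcf4 was lost when any of the 4 libraries was left out, with limma adjusted p from 0.0726 without control replicate 1 to 0.103 without control replicate 2, and of 0.0751 and 0.0894 without differentiation replicates 1 and 2. The log2 fold change of Tcf4 stayed between -0.40 and -0.34 in these fits. Markers of undifferentiated spermatogonia (16 of 21 tested), of fibroblasts and peritubular cells (17 of 19) and of macrophages and leukocytes (11 of 13) fell in the same libraries. Over all features tested, 27.0% fell and 29.6% rose. Spermatocyte markers rose in 19 of 20 genes, and of 14 Sertoli markers tested 5 rose and 5 fell. The part of these marker lists in the values of the E protein genes was not tested.

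Of the 6 genes other than Id4, 6 fell and 0 rose, beside 27.0% lower and 29.6% higher among all features tested, whose median log2 fold change was 0.01. All 7 genes passed the minimum mean of 0.5 FPKM. The groups overlapped in 0 of the 7 genes, and 79.9% of all features tested likewise had no overlap. The log2 fold changes of Tcf3 and Id1 were below those of 98.2% and 96.1% of the features tested. That of Id4 was above 96.4% of them, but Id4 had been selected on its higher level in differentiation. Its high rank therefore cannot be read apart from that selection. Id2, Tcf12 and Tcf4 lay nearer the middle, with 81.0%, 79.0% and 74.6% of the features above them. In the authors' deposited table the log2 fold changes of the 6 genes ran from -1.65 for Id3 to -0.50 for Tcf4, with adjusted p of at most 6.56e-06, and that of Id4 was 2.07.

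**Figure D3:**
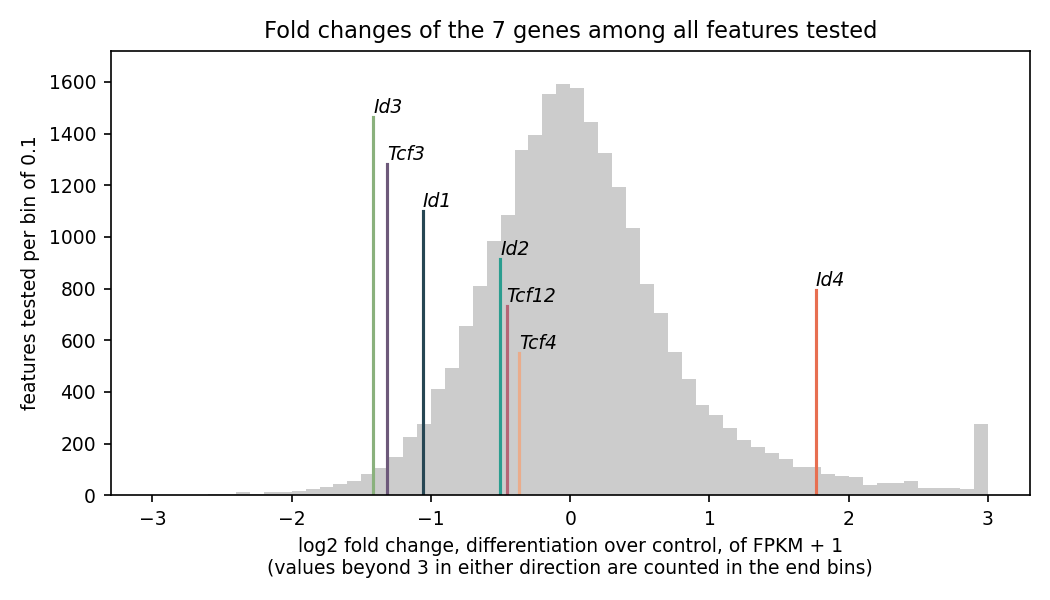
Histogram of the log2 fold change (differentiation over control, of FPKM + 1) of the 23138 features tested, in bins of 0.1, with a labelled vertical line at the value of each of the 7 genes (line heights carry no value) and values beyond 3 counted in the end bins. Id4, selected on its higher level in differentiation, lies at 1.76, right of most features. The other 6 genes lie left of 0, from -1.41 for Id3 to -0.37 for Tcf4.

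Id4 was the lowest of the 7 genes in control and overlapped with Tcf3 at the top in differentiation. The order of the FPKM levels in control was Tcf3, Id1, Id2, Id3, Tcf12, Tcf4 and Id4, with no overlap between neighbours over the 2 libraries. In differentiation the order was Tcf3, Id4, Id2, Id1, Tcf12, Id3 and Tcf4, where Tcf3 and Id4 overlapped, as did Id2 and Id1, and the other neighbours did not. The merged exons of Tcf12 and Tcf4 are far longer than their longest coding transcripts in GENCODE M21 (6299 and 8577 bases), which lowers their FPKM. With fragments per kilobase of the longest coding transcript instead, a scale added after the data were seen, Tcf12 averaged 16.7 in differentiation and 23.9 in control and stood next below Tcf3 in both groups, and Id4 came next after Tcf12 in differentiation and last in control.

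Summed over the family, the Id genes reached 33.4 and 32.9 FPKM in differentiation against 45.7 and 45.2 FPKM in control. Id4 made up 36.7% and 38.1% of that sum in differentiation and 6.57% and 6.40% in control, whereas Id1 made up 25.6% and 25.6% in differentiation and 40.2% and 42.3% in control. The share of Id3 was 9.79% and 11.2% in differentiation and 23.7% and 24.3% in control. Id2 held 27.9% and 25.1% of the sum in differentiation and 29.6% and 27.1% in control, so that its groups overlapped by share and not by level. The E protein genes summed to 22.4 and 21.5 FPKM in differentiation against 45.4 and 47.1 FPKM in control, and Tcf3 made up 58.5% and 57.6% of this sum in differentiation and 71.6% and 71.8% in control.

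The ratio of the Id sum to the E protein sum was 1.49 and 1.53 in differentiation against 1.01 and 0.961 in control. Without Id4 the ratio was 0.942 and 0.949 in differentiation against 0.940 and 0.899 in control. Per kilobase of the longest coding transcript, the ratio was 0.865 and 0.885 in differentiation and 0.677 and 0.644 in control, and without Id4 it was 0.578 and 0.579 in differentiation and 0.638 and 0.609 in control. On both scales the ratio with Id4 was higher in differentiation. Without Id4 the group means differed in opposite directions on the 2 scales. Because Id4 had been selected on its higher level in differentiation, its share of the Id sum and the ratios with it partly reflect that selection. All these ratios compare RNA and not protein, and they were not tested.

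**Figure D4:**
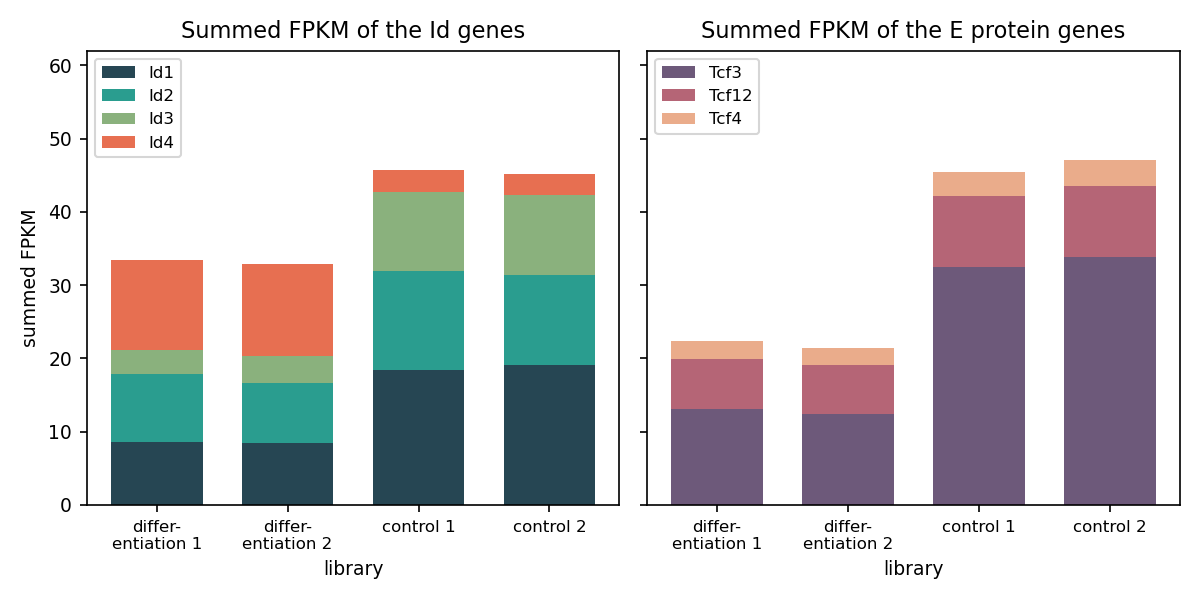
Summed FPKM of the 4 Id genes (left panel) and of the 3 E protein genes (right panel) in each library, stacked by gene, with differentiation libraries left of control libraries. The Id bars reach 33.4 and 32.9 FPKM in differentiation and 45.7 and 45.2 FPKM in control, with Id4 as the largest segment in differentiation and the smallest in control; the E protein bars reach 22.4 and 21.5 FPKM in differentiation and 45.4 and 47.1 FPKM in control.

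The annotation places other features within 3 of the genes, and the labels do not state whether counting used strand. The antisense gene A330033J07Rik and the lincRNA Gm49291 lie on the strand opposite Id4 and share 82 and 171 of its exonic bases. They held 5 and 10, and 25 and 13 fragments in differentiation, against 0 and 4, and 7 and 16 in control, far fewer than the 838 and 984 fragments of Id4 in differentiation. Inside Tcf12, 7 features of the same strand with no exonic base in common with it (annotation class TEC) together held 707 and 782 fragments in differentiation against 1118 and 1119 in control. Of these 7, 6 fell and 0 rose, beside 27.0% lower over all features. Their log2 fold changes ran from -0.57 to -0.24, and Tcf12 itself had -0.46. On the opposite strand inside Tcf12, Gm27152, Gm27450 and Rpl15-ps2 also fell (-0.93, -1.09 and -0.51), and Gm18821 was not called (-0.37). Gm27152 and Gm27450 held at most 14 and 7 fragments in a library. Within Tcf4 lies an rRNA gene, Gm24845, that shares no exonic base with it and was not analysed here.

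Likeness was measured as the Euclidean distance of log2(FPKM + 1) over the 4 libraries, and it follows level and group difference together. The protein-coding genes nearest to Id4 were Ccdc163, Spata6 and Zdhhc1, at distances of 0.076, 0.088 and 0.11. Spata6, a protein of the sperm neck in mice, was at 11.6 and 13.03 FPKM in differentiation against 3.05 and 2.85 FPKM in control. Among the genes nearest to Id1 were Rbfa and Slc23a2 (0.11 and 0.12), and among those nearest to Tcf3 were Llgl1 and the replication helicase gene Mcm2 (0.15 and 0.16). Mcm2 was at 12.2 and 11.7 FPKM in differentiation against 33.03 and 31.4 FPKM in control.

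Of the genes that carry BMP signals to Id promoters, most of the ligands and receptors that could be tested fell. Among 14 BMP ligands, 13 were in the table and 7 passed the minimum level. Of these 7, 5 fell and 0 rose, beside 27.0% lower and 29.6% higher over all features. Their median log2 fold change was -0.68, beside 0.01 over all features. Bmp2, which induces Id genes in many cell types, averaged 0.236 ± 0.00183 FPKM in differentiation and 1.897 ± 0.159 FPKM in control, and Bmp7 averaged 0.816 ± 0.152 FPKM in differentiation and 2.87 ± 0.419 FPKM in control (SD, n = 2 each). Bmp6 fell by 0.90 on the log2 scale. All 7 BMP receptors passed the minimum level, and 6 fell and 1 rose, with a median of -0.49. The most abundant of those that fell, named after their values were seen, changed little. Bmpr1a averaged 25.9 FPKM in differentiation and 28.9 FPKM in control, and Bmpr2 10.8 and 12.3 FPKM (log2 fold changes -0.15 and -0.17). The 7 receptors summed to 58.4 and 59.6 FPKM in differentiation against 68.2 and 68.6 FPKM in control. The type II receptor Acvr2b averaged 3.72 ± 0.103 FPKM in differentiation and 9.65 ± 0.296 FPKM in control, Bmpr1b fell by 0.54 on the log2 scale, and the type II receptor that rose was Acvr2a (13.4 ± 0.943 FPKM in differentiation, 9.004 ± 0.106 FPKM in control; SD, n = 2 each). Leaving out any 1 of the 4 libraries (differentiation replicate 1 or 2, control replicate 1 or 2) reduced the receptors that fell to 2, and Bmpr1b lost its call without differentiation replicate 1 or 2 or control replicate 2. With a minimum mean of 2 FPKM, 0 BMP ligands were called lower.

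Of 4 BMP Smads, 3 passed the minimum level, and the receptor-activated Smads among them went in opposite directions. Smad9 did not pass, with means of 0.462 FPKM in differentiation and 0.403 FPKM in control. Smad5 rose (22.2 ± 0.116 FPKM in differentiation, 13.2 ± 0.749 FPKM in control) and Smad1 fell (4.32 ± 0.368 FPKM in differentiation, 6.56 ± 0.0571 FPKM in control; SD, n = 2 each), while the shared partner Smad4 was not called, at a log2 fold change of 0.02. Of 16 BMP inhibitors, 12 passed the minimum level, and 8 fell and 2 rose, with a median of -0.47. Over all features, 27.0% fell and 29.6% rose. The inhibitory Smads Smad6 and Smad7, which BMP signals themselves induce, fell by 1.14 and 1.13 on the log2 scale. The secreted protein Fstl1 averaged 18.7 ± 1.69 FPKM in differentiation and 52.5 ± 1.40 FPKM in control, and Ski, which represses Smad complexes, 12.1 ± 0.0806 FPKM in differentiation and 29.6 ± 0.332 FPKM in control (SD, n = 2 each). The 2 that rose were Smurf1 and Smurf2, ubiquitin ligases that target Smads and their receptors, at 0.62 and 0.69. Without differentiation replicate 1, or without replicate 2, 5 inhibitors fell. Smad7, Smurf1 and Smurf2 were named after their values were seen. Fibroblast and peritubular markers fell in the same libraries (17 of 19 tested), and their part in the BMP values was not tested.

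**Figure D5:**
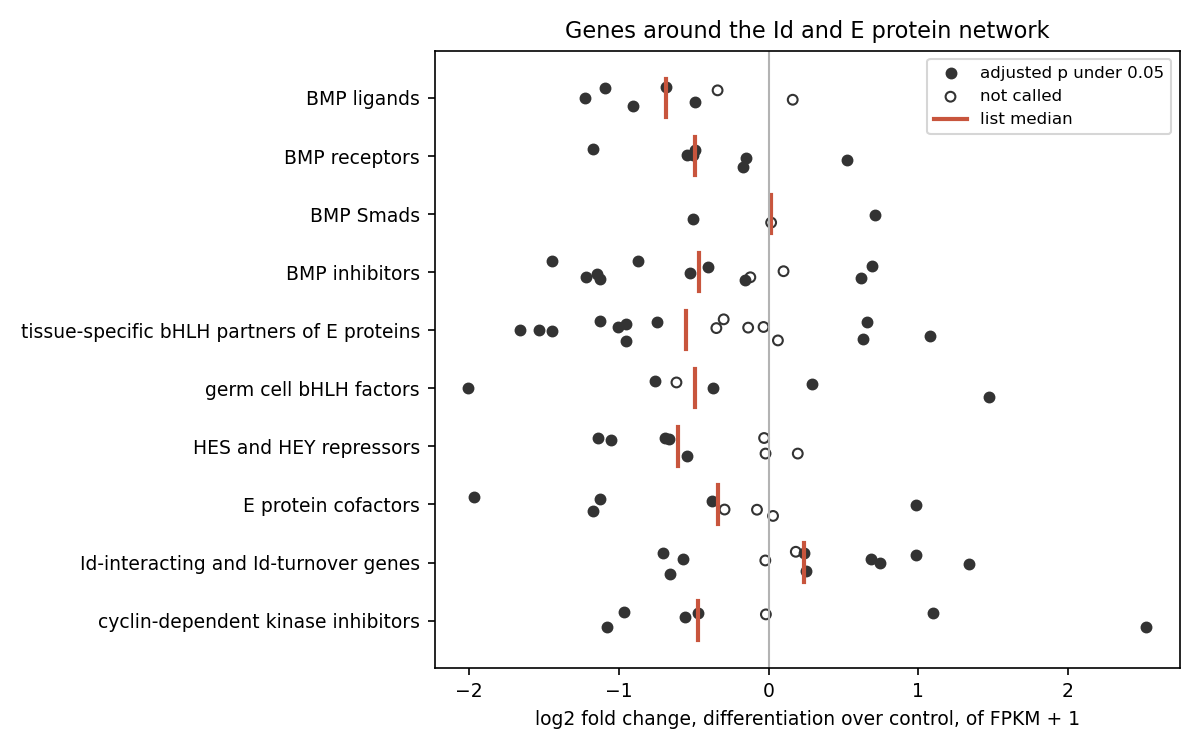
Log2 fold change (differentiation over control, of FPKM + 1) of each tested gene in 10 lists around the Id and E protein genes, with filled points for a limma adjusted p under 0.05, open points for genes not called, and a bar at the median of the list (vertical scatter within a list carries no value). The medians of the BMP ligands, BMP receptors and HES and HEY repressors are -0.68, -0.49 and -0.61, and that of the Id-interacting and Id-turnover genes is 0.24.

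Tissue-specific basic helix-loop-helix factors that pair with E proteins were mostly low. Of 44 listed, 34 were in the table and 16 passed the minimum level. Among these 16, 8 fell and 3 rose (27.0% and 29.6% over all features), with a median of -0.55. On the log2(FPKM + 1) scale the largest decreases were in Tcf15, known in mesoderm and in stem-like spermatogonia of mice (0.541 ± 0.128 FPKM in differentiation, 3.88 ± 0.521 FPKM in control), Ascl2 (0.305 ± 0.0392 FPKM in differentiation, 2.78 ± 0.123 FPKM in control) and Tcf21, a mesenchymal factor (0.571 ± 0.0391 FPKM in differentiation, 3.28 ± 0.148 FPKM in control; SD, n = 2 each). Neurog3, which is also among the 22 markers of undifferentiated spermatogonia and was named after its values were seen, fell as well, with 0.034 and 0.059 FPKM in differentiation (1 and 2 fragments) against 1.11 and 1.10 FPKM in control (36 and 38 fragments). The 3 that rose, named after their values were seen, were Mesp1, Mesp2 and Ascl3, none above 2.33 FPKM on average in either group. With a minimum mean of 2 FPKM, 2 fell and 0 rose, and with no minimum 9 fell and 6 rose. Among 6 germ cell factors of the same fold, 3 fell and 2 rose. Sohlh1, a spermatogonial factor, averaged 6.48 ± 0.162 FPKM in differentiation and 29.0 ± 0.669 FPKM in control, whereas Tcfl5, a factor of spermatocytes, averaged 39.4 ± 2.76 FPKM in differentiation and 13.6 ± 0.556 FPKM in control (SD, n = 2 each). Stra8, which acts at meiotic entry, fell by 0.76 on the log2 scale. The other called germ cell factors, named after their values were seen, were Gm4969 and Sohlh2, with log2 fold changes of 0.29 and -0.37.

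The HES and HEY repressors are helix-loop-helix proteins that do have a basic region, and many of them respond to Notch. They fell in 5 of 8 tested genes (12 listed) and rose in 0, with a median of -0.61. Over all features, 27.0% fell and 29.6% rose. Hes1 averaged 4.54 ± 0.145 FPKM in differentiation and 10.5 ± 0.390 FPKM in control (SD, n = 2 each), and Heyl and Bhlhe41 fell by 1.14 and 0.69 on the log2 scale. With a minimum mean of 2 FPKM, 2 of them fell. The markers of fibroblasts and peritubular cells (17 of 19 tested) and of undifferentiated spermatogonia (16 of 21) fell in the same libraries, and their part in the values of these repressors, of the tissue-specific partners and of the germ cell factors was not tested.

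Of 11 cofactors of E proteins, 8 passed the minimum level. Among these 8, 4 fell and 1 rose (27.0% and 29.6% over all features), with a median of -0.34. The LIM-only gene Lmo1 averaged 2.00 ± 0.0965 FPKM in differentiation and 10.7 ± 0.450 FPKM in control, Lmo4 averaged 3.86 ± 0.134 FPKM in differentiation and 9.98 ± 0.361 FPKM in control, and Ldb1, whose product joins LIM-only proteins to helix-loop-helix complexes, averaged 10.3 ± 1.44 FPKM in differentiation and 23.5 ± 0.914 FPKM in control (SD, n = 2 each). The gene that rose was the corepressor gene Cbfa2t2 (log2 fold change 0.99), named after its value was seen. The acetyltransferase gene Ep300 was not called, at 0.03. The part of the marker lists that fell in these libraries was not tested for the cofactors either.

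Of 14 listed genes whose products bind Id proteins or control their turnover, 11 passed the minimum level. Among these 11, 6 rose and 3 fell, beside 29.6% higher and 27.0% lower over all features, with a median of 0.24. Wdr48, the activating partner of the deubiquitinase Usp1 that stabilises Id proteins in human cells, averaged 27.3 ± 0.679 FPKM in differentiation and 13.3 ± 0.136 FPKM in control, and Usp1 itself, named after its value was seen, rose by 0.68. Cdc20, an activator of the anaphase-promoting complex, averaged 67.2 ± 0.981 FPKM in differentiation and 39.8 ± 0.836 FPKM in control (SD, n = 2 each). Rbl1, a retinoblastoma-family gene, had a log2 fold change of 1.34. The 3 that fell, named after their values were seen, were Ets1, Ets2 and the ubiquitin ligase gene Huwe1. Spermatocyte markers rose in 19 of 20 genes in the same libraries, and their part in the values of this list was not tested.

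The cyclin-dependent kinase inhibitors include genes that E proteins are known to activate, such as Cdkn1a. All 7 passed the minimum level, and 4 fell and 2 rose (27.0% and 29.6% over all features), with a median of -0.47. Cdkn2c averaged 18.3 ± 0.200 FPKM in differentiation and 2.37 ± 0.270 FPKM in control, the largest change on the log2(FPKM + 1) scale among the 85 genes tested in the 10 lists, and Cdkn2d averaged 14.4 ± 0.621 FPKM in differentiation and 6.18 ± 0.125 FPKM in control (SD, n = 2 each). Cdkn2a averaged 5.10 ± 0.427 FPKM in differentiation and 11.9 ± 1.79 FPKM in control, and Cdkn1a, named after its value was seen, fell by 0.47 on the log2 scale. Spermatocyte markers rose in 19 of 20 genes in the same libraries, and their part in the values of Cdkn2c and Cdkn2d was not tested.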

How the data were processed

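RNA depleted of ribosomal RNA was sequenced in 2 differentiation and 2 control libraries, grouped by sample title. Per the submitters' processing notes, the authors used HISAT2 and GRCm38; no source used here gives the counting tool, annotation or strand setting. The deposited table holds FPKM per library, made by the authors, and the authors' log2 fold change, p-value and adjusted p-value, whose test is not named.

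Multiplying FPKM by merged exonic length in GENCODE M21 (31536 of 31600 identifiers matched) and by a fitted scale per library gave whole fragments within 0.05 for 96.2% of features under 300 fragments. The test was limma 3.58.1 (R 4.3.3) on log2(FPKM + 1), two-sided, with an intensity trend, group as the only term, 2 residual and 2.14 prior degrees of freedom, and Benjamini-Hochberg adjustment over 23138 features, those averaging 0.5 FPKM or more. "Rose", "fell" and "called" mean an adjusted p under 0.05. The fit was checked on simulated data with far fewer changed features than were called here, so that check does not cover this setting. For symbols with several features the most abundant was kept.

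From each of 10 pathway lists, up to 3 called genes with the largest change and groups that did not overlap were named. The members, lists and tests were chosen with earlier results of these data known. Alternatives were the pseudocount, filter, scaling, prior trend, limma-voom on recovered fragments, omission of each library and a replicate block. Of the genes nearest in likeness, 2 are not reported here. Promoters came from RefSeq (GRCm38.p6). Summaries used Python 3.11.15 with pandas 2.3.3, numpy 2.4.6 and matplotlib 3.10.9.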

Additional observations from a re-analysis of the deposited data

How the results depend on the processing

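Under the 12 alternatives the 7 genes kept their direction. Log2 fold changes ran from -1.20 to -1.03 for Id1, -0.62 to -0.43 for Id2, -1.64 to -1.35 for Id3, 1.66 to 2.07 for Id4, -1.44 to -1.27 for Tcf3, -0.56 to -0.44 for Tcf12 and -0.50 to -0.34 for Tcf4. The 6 genes tested passed in 67 of 72 fits, and the exceptions were Tcf4 without each library in turn and Id2 without differentiation replicate 2. Of 85 genes tested in the 10 pathway lists, 47 fell and 18 rose, beside 27.0% lower and 29.6% higher over all features. With a minimum mean of 2 FPKM, 30 of the listed genes fell, since fewer genes were tested. Replicate numbers gave no sign of pairing. Deviations from the group mean in differentiation replicate 1 and control replicate 1 had a correlation of -4.08e-04 over features averaging 0.5 FPKM or more. The deviations of replicate 2 mirror these and add no second pair. In a fit with a replicate block, 6510 features rose and 5788 fell, against 6848 and 6246, and all 6 genes remained called. Quantile normalization moved the median log2 fold change over all features to -0.09, against 0.01. Depth limits Id3 and Id1 most, at 104 to 199 fragments in differentiation. With 2 libraries per group, leaving out 1 leaves a group with a single library assumed to vary like the others.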
